A study of Mus musculus with 6 samples.

Results

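The set was 10 of the 24422 genes counted in these kidneys: Vegfa, Ndrg1, Edn1, Adm, Car9, Ddit4, Slc2a1, Ankrd37, Mxi1 and Higd1a. They were chosen by symbol, as known target genes of the hypoxia-inducible factors (HIF) that do not encode glycolytic enzymes. The rule used no measured value, but the members were chosen with earlier results of these data known. All 10 were in the count tables, and all 10 received an adjusted p-value. Poly-A RNA was counted in whole kidneys of C57BL/6 mice at postnatal day 13, fed a diet with 220 ppm iron, in 3 Control libraries labelled wild type and 3 TfR1 knockout libraries labelled Tfr1f/f;SixCre. In the knockout, exons 3 and 4 of Tfrc, the gene of the transferrin receptor TfR1 that brings transferrin-bound iron into cells, are floxed and removed by Six2CreEGFP, a Cre line that works in nephron progenitors. The deletion is thus aimed at nephron cells and not at the collecting duct, vessels or stroma, and the study describes it as incomplete, with TfR1+ cells that had escaped Cre in tubules at this age. Controls are described as wild type littermates, and whether they carried the floxed allele or Cre is not given in the labels.

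HIF is a pair of proteins, an alpha subunit (Hif1a or Epas1) and a beta subunit (Arnt), that binds DNA near its target genes and raises their transcription. Hif3a encodes a further alpha subunit, and its effect on the targets was not tested here. When oxygen and iron are at hand, the prolyl hydroxylases (Egln1, Egln2 and Egln3), which are enzymes that hold iron, modify the alpha subunit so that Vhl can mark it for destruction. The targets followed here carry the response to low oxygen outside glycolysis: signals to vessels, uptake of glucose, control of acid, and restraint of growth and of mitochondria.

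The libraries held 16591156 to 22898008 counts each, and values below are normalized counts, that is, counts divided by the median-ratio size factor of the library. The first principal component separated the groups (57.4% of the variance of the 500 most variable genes). In each group 1 library stood apart. Control 3 had the lowest summed level of the proximal tubule markers among the Control libraries (107343 normalized counts against 256126 and 280603 in Control 1 and 2), and TfR1 knockout 2 had the highest summed level of the collecting duct markers (68809 against 39391 and 40234 in TfR1 knockout 1 and 3). Aqp2 alone gave 50719 of that 68809, beside 17805 and 23564 in TfR1 knockout 1 and 3. Of the 8 collecting duct markers, 5 were highest in TfR1 knockout 1 and 3 in TfR1 knockout 2. Among the Control libraries, Control 3 also had the highest sum of the stromal markers (146641 against 73832 and 71701). The same held for the endothelial markers (33149 against 20983 and 20874). The count of Tfrc (chromosome 16) did not check the labels: it was 5534, 6485 and 3667 in Control 1 to 3 and 6976, 4045 and 5898 in TfR1 knockout 1 to 3, groups that overlapped (log2 fold change 0.11, SE 0.29, DESeq2 adjusted p 0.853). Reads of the floxed exons alone were not analysed here. Because whole kidneys were sequenced, fewer cells of a type and less RNA per cell cannot be told apart in any value below.

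HIF binds DNA at a short core sequence, so the DNA in front of 3 members is shown before the counts. RefSeq promoters (build GRCm38.p6, a later build than the mm9 gene positions given below) were matched for 9 of the 10 members, all but Ndrg1, and gave 12 promoters. The 250 bases before each start were searched on both strands for ACGTG and GCGTG, motifs of 5 bases. At least 1 match was found in 9 of the 12 promoters and for 8 of the 9 members, beside 38.6% of all 32851 promoters in the table (16.6% for ACGTG and 28.2% for GCGTG). Some windows with a match lie largely inside an annotated mm9 transcript of their own gene. The shared bases were 204 for Higd1a, 178 for the Vegfa window with matches and all 250 for 1 Mxi1 window. The other Vegfa window held no match. These counts describe the windows, and enrichment in promoters was not tested. Adm (chr7:110627407-110627656, plus strand) held 2 matches, at positions -90 to -86 and -54 to -50 from the start. Ddit4 (chr10:59951771-59952020, minus strand) held 2, at -187 to -183 and -115 to -111. Ankrd37 (chr8:45999851-46000100, minus strand) held 4, of which the GCGTG on the other strand (-155 to -151) and the GCGTG on the gene's own strand (-152 to -148) overlap. These 3 are printed because Adm and Ddit4 passed the test below and Ankrd37 varied most between knockout libraries. Each is written 5′ to 3′ in the direction of the gene and ends at the base before the start, with the matches in capitals (a match on the other strand reads CACGT or CACGC).
Adm: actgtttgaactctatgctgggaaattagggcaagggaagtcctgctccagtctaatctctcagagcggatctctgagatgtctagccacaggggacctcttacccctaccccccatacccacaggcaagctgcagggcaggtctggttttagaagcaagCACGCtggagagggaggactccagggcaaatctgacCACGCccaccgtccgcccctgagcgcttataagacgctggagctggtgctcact
Ddit4: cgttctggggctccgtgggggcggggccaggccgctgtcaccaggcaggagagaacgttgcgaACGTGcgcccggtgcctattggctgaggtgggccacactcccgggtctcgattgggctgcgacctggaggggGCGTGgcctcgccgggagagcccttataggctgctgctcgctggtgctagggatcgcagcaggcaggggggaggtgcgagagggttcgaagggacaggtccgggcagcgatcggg
Ankrd37: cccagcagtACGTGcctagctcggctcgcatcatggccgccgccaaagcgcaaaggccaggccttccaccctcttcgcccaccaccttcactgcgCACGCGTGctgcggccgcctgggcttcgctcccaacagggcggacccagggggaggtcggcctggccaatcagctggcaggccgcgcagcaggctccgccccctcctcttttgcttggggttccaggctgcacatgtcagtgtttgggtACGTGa
Edn1, which had the largest increase of the members, held no match in its 250 bases, which says only that these letters are not in that window. Much of this window (206 of the 250 bases) lies inside an annotated Edn1 transcript of mm9. Car9, the member that fell, held 1 match (-18 to -14). The G and C content of the members' windows ran from 50.4% to 77.2%, beside a mean of 53.2% over all promoters. A match is a description of letters, and no binding was measured.

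Setting the knockout kidneys against the Control kidneys asked whether transcripts of HIF targets change when the receptor is deleted in the nephron. At an adjusted p under 0.05 (DESeq2 Wald test over 16509 genes), 4 of the 10 members were higher in the knockout (Ndrg1, Edn1, Adm and Ddit4), 1 was lower (Car9) and 5 did not pass (Vegfa, Slc2a1, Ankrd37, Mxi1 and Higd1a). Over all genes tested, 7.74% were called higher and 7.18% lower. With a fold of at least 2 added, 3 members were higher and 1 was lower, beside 4.41% and 4.46% of all genes. edgeR's quasi-likelihood test kept 1 member higher (Edn1) and 1 lower (Car9), beside 3.22% and 2.80% of its 15308 genes. The knockout libraries lay wholly above the Control libraries for 5 members and wholly below for 1, beside 16.9% of all genes above and 16.9% below. The members' median log2 fold change was 0.81, and that of all genes tested was 0.01.

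**Figure D1:**
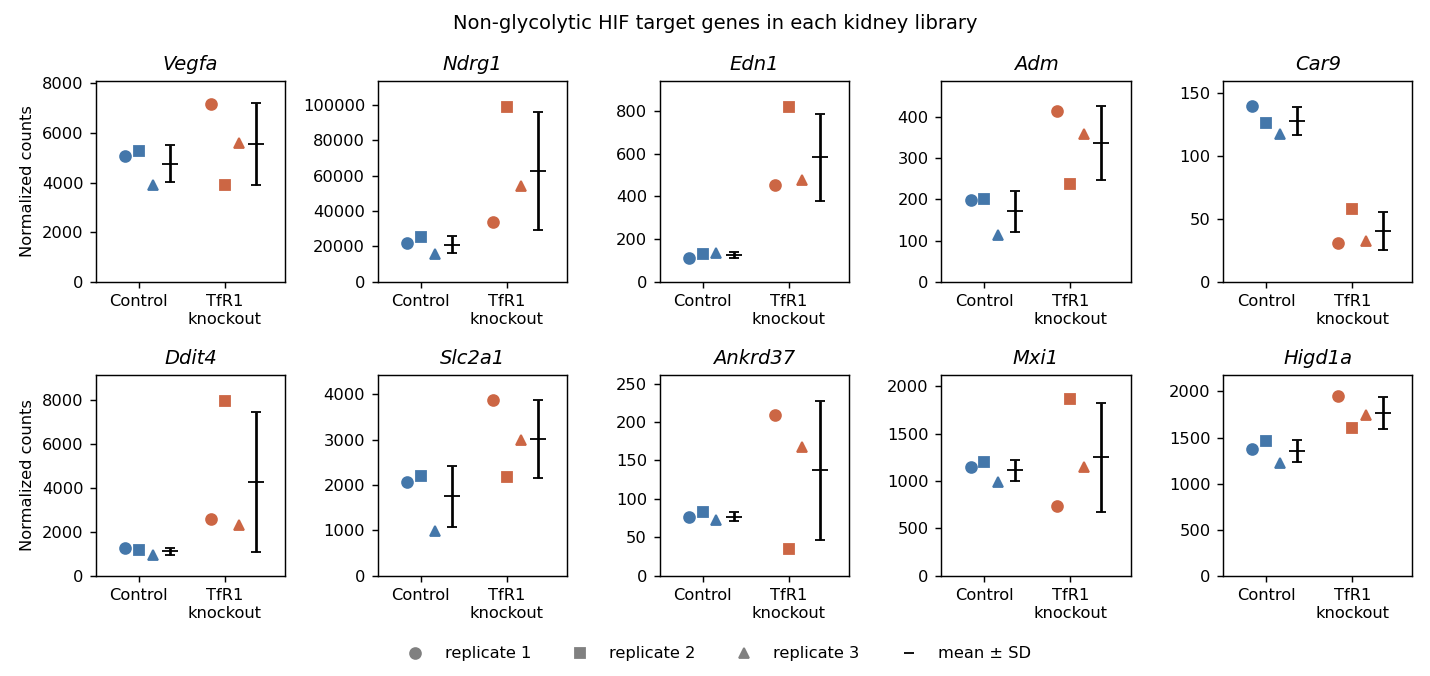
Normalized counts (vertical axes, starting at 0, with a scale for each gene) of the 10 members in the 3 Control and 3 TfR1 knockout libraries, with the mean ± SD of each group in black and the replicate number as the marker shape. All 3 knockout libraries lie above all Control libraries for Ndrg1, Edn1, Adm, Ddit4 and Higd1a, and below them for Car9.

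The 3 secreted signals did not move alike. Edn1 (chromosome 13, 42396639 to 42403358, plus strand of mm9) encodes the precursor of endothelin-1, a peptide that constricts vessels and, made by the collecting duct, curbs salt and water uptake. It had 109.7, 132 and 135 normalized counts in Control 1 to 3 and 452, 820.1 and 479 in TfR1 knockout 1 to 3. Every knockout library was more than 3-fold above the highest Control library, and the Control libraries lay close together. Edn1 rose 4.66-fold, from 125 ± 13.6 to 584 ± 205 normalized counts (mean ± SD, n = 3 each), a log2 fold change of 2.22 (SE 0.30, DESeq2 adjusted p 1.43e-11, edgeR adjusted p 0.00694). It was the member with the largest change and the 1 increase that both tools called. Without TfR1 knockout 2, the highest library, its log2 fold change was 1.90.

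Adm (chromosome 7, 117771175 to 117773331, plus strand) encodes adrenomedullin, a peptide that widens vessels and steadies their walls. Its normalized counts were 198, 199.97 and 114 in Control 1 to 3 and 414, 237 and 359 in TfR1 knockout 1 to 3. The groups did not overlap, but the lowest knockout library, TfR1 knockout 2, was near Control 1 and 2. Adm rose 1.97-fold, with group means of 171 ± 49.0 and 337 ± 90.7, and its log2 fold change of 0.98 (SE 0.33) passed (DESeq2 adjusted p 0.0246). This call was the least steady of the 5: edgeR gave an adjusted p of 0.107, and leaving out any single library other than TfR1 knockout 2 ended it (DESeq2 adjusted p 0.0566 to 0.138). Without TfR1 knockout 2 the log2 fold change was 1.18 (DESeq2 adjusted p 0.00419), and without Control 3 it was 0.76 (0.0838).

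Vegfa (chromosome 17, 46153942 to 46169326, minus strand) encodes the vascular endothelial growth factor that podocytes and tubules give to nearby capillaries. It had 5087, 5288 and 3912 normalized counts in Control 1 to 3 and 7184, 3899.6 and 5582 in TfR1 knockout 1 to 3. TfR1 knockout 1 and 3 lay above every Control library. The groups overlapped through TfR1 knockout 2, the lowest of all 6 and close to Control 3. The means were 4762 ± 744 and 5555 ± 1642, and the log2 fold change of 0.22 (SE 0.27) did not pass (DESeq2 adjusted p 0.635). Its 95% interval ran from -0.30 to 0.75, so a change of up to 1.68-fold upward lies within the precision of these libraries. Without TfR1 knockout 1 the estimate was just below 0 (-0.01), a sign with no call on either side.

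The receptors and helpers of these 3 signals were taken as a list of 11 genes. Of them 3 passed as higher in the knockout with DESeq2, 0 as lower and 8 did not pass, beside 7.74% higher and 7.18% lower over all genes. edgeR and limma-voom called 0, and at an unadjusted p under 0.05 both DESeq2 and edgeR had 3 higher and 0 lower. The share of all genes at this unadjusted threshold was not counted. Unadjusted counts, here and for the lists below, therefore cannot be set against a background. The 3 were Ednrb, a receptor for endothelins (log2 fold change 1.33, adjusted p 0.0236), Ramp3, which shapes the adrenomedullin receptor (0.96, 0.0394), and Flt1, a receptor for Vegfa (0.95, 0.0251), with adjusted p from DESeq2. For all 11 genes the groups overlapped, as they did for 10944 of the 16509 genes tested. The log2 fold changes of the 8 that did not pass were 0.40 for Kdr, the main signalling receptor for Vegfa, 0.29 for Nrp1, -0.20 for Nrp2, 0.14 for Ednra, 0.11 for Ece1, which cuts the endothelin precursor, -0.54 for Calcrl, the core of the adrenomedullin receptor, 0.78 for Ramp1 and -0.14 for Ramp2. The list's median was 0.29. Of 10 endothelial markers, 0 passed with DESeq2, edgeR or limma-voom, also at an unadjusted p under 0.05 with DESeq2 and edgeR (0), and their summed level ranged from 20874 to 33149 normalized counts in Control and from 20682 to 25864 in knockout libraries. Control 3 alone set the top of the Control range, with Control 1 at 20983.

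Car9 (chromosome 4, 43519838 to 43526601, plus strand) encodes carbonic anhydrase 9, a surface enzyme that handles acid and a classic HIF target in tumours. It was the 1 member that fell. Its normalized counts were 139, 126 and 117 in Control 1 to 3 and 30.8, 57.6 and 32.2 in TfR1 knockout 1 to 3. All Control libraries were above all knockout libraries, with the highest knockout library, TfR1 knockout 2, still under the lowest Control library. The level fell by 1.69 on the log2 scale (SE 0.35, DESeq2 adjusted p 3.87e-05, edgeR adjusted p 0.029), from 128 ± 11.1 to 40.2 ± 15.1 normalized counts. The call held without each library in turn, with log2 fold changes from -2.02 to -1.53. These are few reads (31 to 45 raw counts per knockout library), and 9.29% of the exon length of Car9 overlaps an annotated opposite-strand transcript, Gm12454, which the count tables do not list.

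Slc2a1 (chromosome 4, 118781316 to 118809935, plus strand) encodes GLUT1, the glucose carrier of many cells. It had 2074, 2197 and 977 normalized counts in Control 1 to 3 and 3879, 2166 and 2989 in TfR1 knockout 1 to 3. TfR1 knockout 2 lay just under Control 2, and Control 3 lay far below the other Control libraries. The means of 1749.6 ± 672 and 3012 ± 857 gave a log2 fold change of 0.78 (SE 0.35, 95% interval 0.09 to 1.47), which did not pass after adjustment (DESeq2 adjusted p 0.120, edgeR adjusted p 0.2002). Without Control 3 it was 0.49 and without TfR1 knockout 2 it was 0.98 (DESeq2 adjusted p 0.239 and 0.0622).

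**Figure D2:**
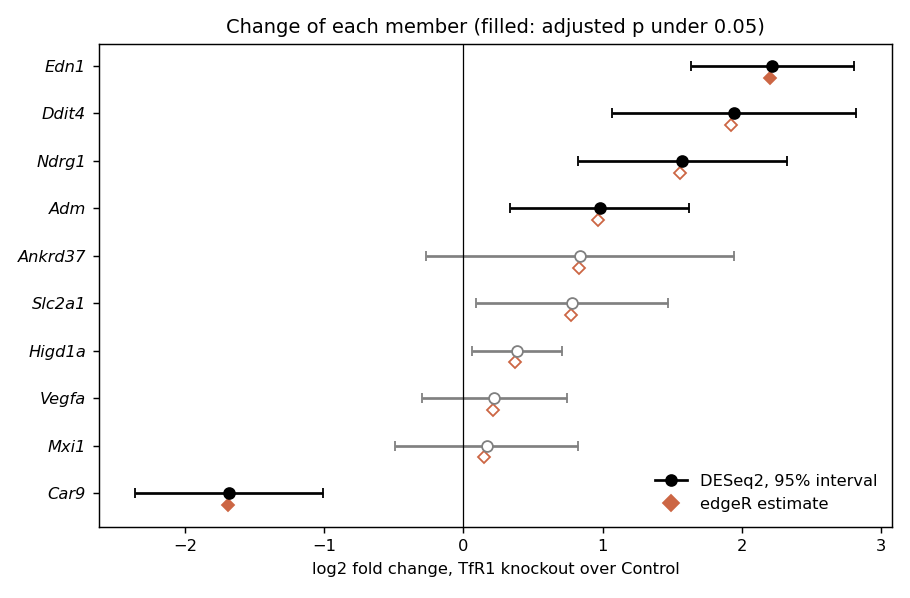
Log2 fold change of each member, TfR1 knockout over Control (horizontal axis), from DESeq2 with its 95% interval (circles and bars) and from edgeR (diamonds), filled where the adjusted p is under 0.05. Filled circles mark Edn1, Ddit4, Ndrg1, Adm and Car9, filled diamonds mark only Edn1 and Car9, and the estimates of both tools lie side by side.

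Ndrg1 and Ddit4, genes of the stress response, both rose, with a wide spread between knockout libraries. Ndrg1 (chromosome 15, 66760883 to 66801202, minus strand) encodes a protein of differentiating epithelia that slows growth. It had 22151.5, 25175 and 15637 normalized counts in Control 1 to 3 and 33887.5, 99033.5 and 54435 in TfR1 knockout 1 to 3. Every knockout library was above every Control library, and TfR1 knockout 2 was 2.92-fold above TfR1 knockout 1. The means were 20988 ± 4874 and 62452 ± 33305, so that Ndrg1 rose 2.98-fold (DESeq2 adjusted p 8.12e-04, with a log2 fold change of 1.57 and an SE of 0.38), and it was not called by edgeR (1.55, adjusted p 0.0694). Without TfR1 knockout 2 its log2 fold change was 1.08 (DESeq2 adjusted p 0.00552).

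Ddit4 (chromosome 10, 59412423 to 59414518, minus strand) encodes REDD1, which restrains the growth kinase mTORC1 under stress. Its normalized counts were 1241, 1158 and 945 in Control 1 to 3 and 2604, 7985 and 2299 in TfR1 knockout 1 to 3. All knockout libraries were above the Control libraries, TfR1 knockout 1 and 3 lay close together, and TfR1 knockout 2 was 3.07-fold and 3.47-fold above them. Between means of 1115 ± 153 and 4296 ± 3198, Ddit4 rose 3.85-fold (DESeq2 adjusted p 3.46e-04, with a log2 fold change of 1.95 and an SE of 0.45), and it was not called by edgeR (1.92, adjusted p 0.0554). Without TfR1 knockout 2 the log2 fold change was 1.14, and the call stayed (DESeq2 adjusted p 9.32e-07).

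Mxi1 (chromosome 19, 53384996 to 53450300, plus strand) encodes a Max partner that opposes Myc. It had 1145, 1203 and 991 normalized counts in Control 1 to 3 and 733, 1868 and 1151 in TfR1 knockout 1 to 3. The knockout libraries lay on both sides of the Control libraries, with TfR1 knockout 1 lowest and TfR1 knockout 2 highest of all 6. The log2 fold change of 0.17 (SE 0.34, DESeq2 adjusted p 0.796) had a 95% interval from -0.49 to 0.82, and without TfR1 knockout 2 it was -0.24 (0.673). No direction can be given for Mxi1 from these libraries.

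Ankrd37 (chromosome 8, 47082256 to 47085221, minus strand) encodes a small protein with ankyrin repeats. Its normalized counts were 75.9, 82.7 and 72.1 in Control 1 to 3 and 209, 34.5 and 167 in TfR1 knockout 1 to 3. TfR1 knockout 1 and 3 were more than 2-fold above every Control library, while TfR1 knockout 2 was below them all and 6.05-fold under TfR1 knockout 1, the widest spread among the members. With all libraries the log2 fold change was 0.84 (SE 0.56, 95% interval -0.27 to 1.94, DESeq2 adjusted p 0.345), and without TfR1 knockout 2 it was 1.29 (DESeq2 adjusted p 1.67e-04). The call therefore rests on whether that library, with 27 raw counts of the gene against 210 and 177, is in the fit. Opposite-strand exons of Lrp2bp cover 24.88% of the exon length of Ankrd37 and those of Ufsp2 cover 4.06%, and the strand setting of the counting is not given in the sources used here, so reads of these genes cannot be told apart there. Lrp2bp had at most 23 raw counts in any library, and Ufsp2 had 434 to 877, against 27 to 210 for Ankrd37.

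Higd1a (chromosome 9, 121757678 to 121767118, minus strand) encodes a protein of the inner mitochondrial membrane that acts on the respiratory chain. It had 1379, 1457 and 1221 normalized counts in Control 1 to 3 and 1946, 1604 and 1749 in TfR1 knockout 1 to 3. The groups did not overlap and both were tight, but the difference was small. The means of 1352 ± 120.4 and 1767 ± 172 gave a log2 fold change of 0.39 (SE 0.16, 95% interval 0.06 to 0.71, DESeq2 adjusted p 0.0966, edgeR adjusted p 0.139), which did not pass. A stretch of 461 bases elsewhere in mm9 is 97.4% identical to the Higd1a transcript, so its count is uncertain. The other 9 members had no such copy.

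Levels can be set against each other only per length, here as counts per kilobase of all annotated exons of the gene and per 1000000 counts of the library. This length can exceed that of the longest coding transcript: 6593 against 2886 bases for Ndrg1 and 1403 against 927 for Ankrd37. For Edn1 (2344) and Adm (1387) they were the same. The order below holds for this choice of length, and other choices were not tried. On that scale Ndrg1 was the most abundant member in Control kidneys (169.6 ± 33.3) and Edn1 the least (2.87 ± 0.370). Vegfa (59.2 ± 7.11) came next to Ndrg1. Higd1a (38.6 ± 1.94), Ddit4 (35.3 ± 3.81) and Slc2a1 (32.5 ± 11.6) followed, neighbours that did not differ beyond their spread. Mxi1 (10.6 ± 0.632) and Adm (6.54 ± 1.68) were lower, and Car9 (2.97 ± 0.206) and Ankrd37 (2.93 ± 0.107) were level with Edn1. In knockout kidneys Ndrg1 was again first (458 ± 203) and Car9 last (0.850 ± 0.232). Ddit4 came second (121 ± 78.4) through TfR1 knockout 2 alone, at 211.8 against 80.3 and 72.1 in TfR1 knockout 1 and 3. Without that library, an average taken after the values were seen, its mean level was 76.2, under the 77.8 of Vegfa. Edn1 (12.2 ± 3.04) stood beside Adm (12.3 ± 4.12) and Mxi1 (10.8 ± 4.04), with no difference beyond the spread among these 3. Ankrd37 (5.05 ± 3.49) had a lower mean than these 3. Vegfa (65.4 ± 23.3), Slc2a1 (53.3 ± 18.4) and Higd1a (47.2 ± 8.06) overlapped one another in the knockout.

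**Figure D3:**
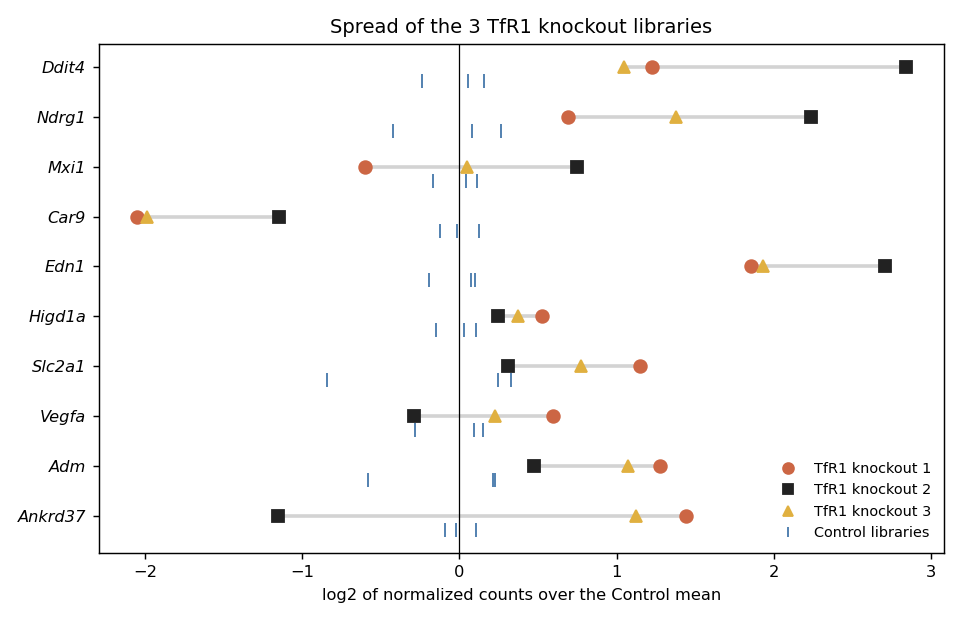
Log2 of the normalized counts of each TfR1 knockout library over the Control mean (horizontal axis) for the 10 members, with the Control libraries as blue ticks and a grey bar joining the knockout libraries. TfR1 knockout 2 (black squares) lies at the right end for Ddit4, Ndrg1, Mxi1, Car9 and Edn1 and at the left end for Higd1a, Slc2a1, Vegfa, Adm and Ankrd37.

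The members split into 5 and 5 by where TfR1 knockout 2 lay among the knockout libraries. It was the highest for Ndrg1, Edn1, Car9, Ddit4 and Mxi1 and the lowest for Vegfa, Adm, Slc2a1, Ankrd37 and Higd1a. An end position of this library was common among all genes tested as well, as 40.1% of them were highest and 40.2% lowest in it, so the 10 of 10 is not set apart from the rest by a test. The ratio of TfR1 knockout 2 to TfR1 knockout 1 ran from 0.165 for Ankrd37 through 0.543 for Vegfa to 3.07 for Ddit4. Among the marker sums, TfR1 knockout 2 was highest for the collecting duct (1.75 times TfR1 knockout 1) and for the thick limb and distal tubule (1.42 times). The collecting duct sum leans on Aqp2, and 5 of the 8 markers were highest in TfR1 knockout 1. TfR1 knockout 2 was lowest for stroma (0.556 times), macrophages (0.682 times) and, barely, podocytes (0.997 times). The part of these differences in the members' spread was not tested. Control 3 was the lowest Control library for 9 of the 10 members, all but Edn1, beside 43.9% of all genes. Without Control 3 the members' calls were Ndrg1, Edn1 and Ddit4 higher and Car9 lower, and without TfR1 knockout 2 they were Ndrg1, Edn1, Adm, Ddit4 and Ankrd37 higher and Car9 lower. Over all genes, 1234 were higher and 1111 lower of 16381 without Control 3. Without TfR1 knockout 2, 904 were higher and 886 lower of 16431.

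Markers of kidney cell types moved between the groups beside these genes. Over all genes tested, DESeq2 called 7.74% higher and 7.18% lower. All 7 markers of the thick limb and distal tubule fell in the knockout (summed level 56944 to 115612 normalized counts in Control and 13795 to 25996 in knockout libraries), and Umod, which defines the thick limb, had a log2 fold change of -3.65. Of 10 proximal tubule markers 4 fell and 1 rose, with sums of 107343 to 280603 and 56960 to 86345. Much of the Control sums was Kap alone, with 46135 to 158797 in Control and 5892 to 11842 in knockout libraries. For 6 of the 10 proximal tubule markers the groups overlapped. Of 8 collecting duct markers 4 rose, Aqp2 among them with a log2 fold change of 2.74, with sums of 12205 to 19024 and 39391 to 68809. Aqp2 alone gave 2409 to 5747 of these sums in Control and 17805 to 50719 in knockout libraries. Of 10 macrophage markers 7 rose (2892 to 4903 and 6650.3 to 9751), of 8 podocyte markers 1 rose, of 8 stromal markers 2 fell, and of 9 erythroid markers 5 were tested and 1 fell. The stromal sums were 73832, 71701 and 146641 in Control 1 to 3 and 72012, 40073.5 and 65330 in TfR1 knockout 1 to 3. The calls given so far are those of DESeq2. edgeR called 6 thick limb and distal markers and 2 proximal tubule markers lower, 1 proximal tubule, 1 collecting duct, 4 macrophage and 1 podocyte marker higher, and 1 erythroid marker lower. Of the stromal markers edgeR and limma-voom called 0, with 2 lower at an unadjusted p under 0.05 in edgeR. Endothelin-1 is made in collecting duct cells, among others. The part of these shifts in the members' changes was not tested.

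Other genes of the pathway were counted from lists. The shares of all genes to set beside these lists are 7.74% higher and 7.18% lower with DESeq2. With edgeR they are 3.22% and 2.80%. Among 10 subunits and hydroxylases of HIF, Hif3a was the 1 gene that changed: it had 143, 153 and 209 normalized counts in Control 1 to 3 and 1171, 2311 and 2193 in TfR1 knockout 1 to 3. The knockout libraries lay far above, and Hif3a rose 11.3-fold between means of 168 ± 35.7 and 1892 ± 626 (DESeq2 adjusted p 5.00e-26, edgeR adjusted p 0.0027, with a log2 fold change of 3.49 and an SE of 0.31). The other 9 did not pass: the log2 fold changes were -0.21 for Hif1a, 0.31 for Epas1, 0.06 for Arnt, 0.12 for Arnt2, -0.06 for Egln1, 0.31 for Egln2, 0.18 for Egln3, 0.18 for Hif1an and -0.08 for Vhl. HIF alpha subunits are controlled mainly as proteins, which were not measured in these libraries.

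Among 27 other non-glycolytic targets of HIF, 5 rose, 1 fell and 21 did not pass, with a median log2 fold change of 0.27, and edgeR called 2 higher and 0 lower, with 7 and 0 at an unadjusted p under 0.05. The largest among those called, leaving out means under 100 normalized counts, were Ero1l, which folds secreted proteins (log2 fold change 1.98, DESeq2 adjusted p 2.42e-19), Lox, which cross-links collagen (1.53, 0.0230), Kdm3a, a histone demethylase (0.71, 0.0483), and Vldlr, a lipoprotein receptor (0.61, 5.69e-04). The 2 that edgeR called were Ero1l and Vldlr (edgeR adjusted p 0.00352 and 0.0458). It did not call Lox or Kdm3a (edgeR adjusted p 0.138 and 0.113), and for both the groups overlapped. Bhlhe41 (0.95, 0.0353) and Epo, both named after their values were seen, completed the calls. Epo, the hormone of red cell formation, is a classic HIF target that fell: it had 14, 29 and 5 raw counts in Control 1 to 3 and 0, 1 and 0 in TfR1 knockout 1 to 3. These counts are too few for a fold, edgeR's filter on low counts left Epo out, and the call was lost without Control 2 or without TfR1 knockout 3.

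Among 21 glycolytic targets, 20 were tested, 9 rose, 0 fell and 11 did not pass (median log2 fold change 0.70), with 4 called higher by edgeR. At an unadjusted p under 0.05, a threshold with no share of all genes beside it, DESeq2 had 13 higher and 0 lower and edgeR 12 and 0. After adjustment limma-voom called 5 and 0. Hk2 (2.30), Eno2 (1.79), Pfkp (1.35) and Gpi1 (1.14), which are enzymes of glucose breakdown, had the largest log2 fold changes among the 9 called. TfR1 knockout 2 was the lowest knockout library for 14 of the 20 and the highest for 2. For the 10 members it was lowest for 5 and highest for 5. Over all genes tested the shares were 40.2% lowest and 40.1% highest. The member relatives, 20 genes of the same families, of which 18 were tested, held 1 call in each direction with a median of -0.12: Ddit4l rose (0.82, DESeq2 adjusted p 0.00509), a call that edgeR and limma-voom did not make (adjusted p 0.0525 and 0.0564), and Mxd3, a relative of Mxi1, fell (-2.20, DESeq2 adjusted p 9.85e-06, edgeR adjusted p 0.0313). Over the 56 tested genes of the pathway lists (subunits, other targets and glycolytic targets), 15 rose and 1 fell, with a median log2 fold change of 0.32 beside 0.01 for all genes.

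**Figure D4:**
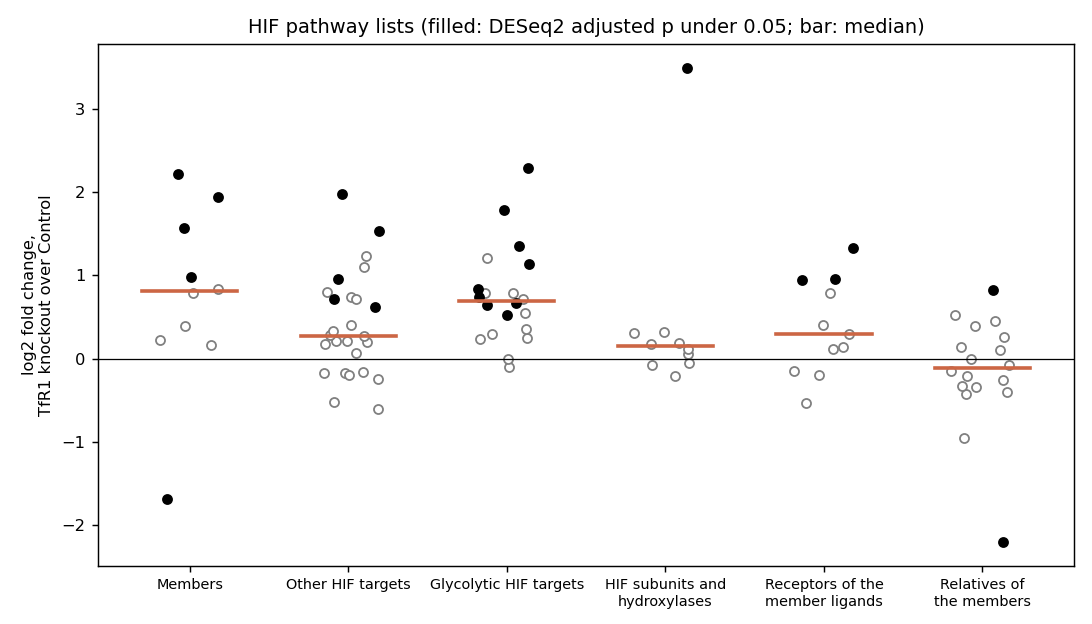
Log2 fold change, TfR1 knockout over Control (vertical axis), of each tested gene of the members and 5 related lists, filled where DESeq2's adjusted p is under 0.05, with an orange bar at the list's median. Points are spread sideways only for sight, and Epo (at most 1 count in a knockout library) is left out of the points. The member median of 0.81 and the glycolytic median of 0.70 lie above those of the other lists, and Hif3a is the top point at 3.49.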

How the data were processed

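Counts per gene were deposited by the authors as raw whole numbers, with no normalization. Per the labels, reads were handled with CASAVA 1.8.2, Trimmomatic, TopHat2 2.0.11 (mm9) and HTSeq. The study's methods name poly-A selection, TruSeq kits and a HiSeq. The strand setting and annotation of the counting are not given in the sources used here.

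The 6 columns were matched to samples by their labels. All genes were fitted with DESeq2 1.42.0 in R 4.3.3, the tool the study names: a Wald test with median-ratio size factors, no covariate, Benjamini-Hochberg adjustment over all genes and independent filtering tuned at 0.05, which tested 16509 of 24422 genes (mean count above 3.51). Outlier filtering gave 29 genes no p-value. The alternatives were edgeR 4.0.16, limma 3.58.1 with voom, other size factors and filters, a replicate block, leaving out each library and shrunken fold changes, which carry no test of their own. The code was tested on simulated data, where DESeq2 made more false calls than edgeR or limma-voom at the same threshold. The calls of edgeR therefore stand beside those of DESeq2.

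Named genes were Tfrc, the members, all HIF subunits, hydroxylases and receptors, up to 4 called genes with the largest change and a mean of at least 100 normalized counts from each other list, and defining markers. Members and lists were chosen with earlier results of these data known. Positions and exon lengths came from GENCODE for mm9. The study describes its replicates as mice, and the labels name no animals, so p-values measure the spread between these libraries. Counting error is small at these depths for all but the genes with few counts, and 3 libraries a group limit the precision.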

Additional observations from a re-analysis of the deposited data

How the results depend on the processing

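Over the 10 members and 15 alternatives with a test of their own, 134 of 150 log2 fold changes kept their direction and their side of the threshold, 12 lost a call, 2 gained one and 2 changed sign. The sign changed for Vegfa without TfR1 knockout 1 (-0.0055, with 0.43 at the other end of the range over libraries left out) and for Mxi1 without TfR1 knockout 2 (-0.24, with 0.44). In place of 4 higher members, edgeR called 1 and limma-voom called 1, and leaving out each library gave 3 to 5 (5 without TfR1 knockout 2, with Ankrd37 added). Car9 was the 1 lower member in all settings. Over all genes, edgeR called 493 higher and 428 lower and limma-voom 485 and 456, each of 15308. Leaving out each library gave from 664 higher and 575 lower of 16009 (without Control 1) to 1531 and 1674 of 16013 (without TfR1 knockout 1). Without TfR1 knockout 2 they were 904 and 886 of 16431. In place of 15 higher pathway genes, a fold of at least 2 left 7, edgeR called 7 and limma-voom 8, and leaving out each library gave 9 to 17 (9 without Control 1). The 1 lower pathway gene became 0 with edgeR, limma-voom or a minimum of 10 counts in 3 libraries, 2 with total-count size factors (Hif1a added), and 0 to 1 on leaving out each library. Edn1, Ndrg1, Ddit4 and Car9 were called without each library in turn. Total-count size factors moved the median of all genes by -0.104, the shift against which fold changes with that scaling are to be read, and of the members' calls they ended only that of Adm (0.91, DESeq2 adjusted p 0.062). The cause of these differences was not tested.

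The replicate numbers did not pair the libraries: the correlations of same-numbered deviations were -0.038, 0.055 and 0.090 over 15303 genes, and 3 of 6 libraries correlated best with their own number. With the replicate block, 5 members were higher (Slc2a1 added, 0.83, DESeq2 adjusted p 0.0278), 1 was lower, and 18 pathway genes were higher and 2 lower. Over all 16155 genes tested with the block, 1085 were higher and 1087 lower.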
